A study of Homo sapiens with 12 samples.

Results

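The genes described here are MYC, its partner MAX and a group of nucleolar genes for RNA polymerase I transcription and ribosome assembly, followed in L-540, an established Hodgkin lymphoma cell line, under perifosine, sorafenib or both. The list has 45 genes. A gene was kept if the platform annotation gave its symbol to a probe that was above background (detection p under 0.01) on 3 or more of the 12 arrays, which left 38 of the 45, among 8092 genes tested in all. Of the other 7, GNL3 and WDR43 were named by no probe in the annotation used here, and NPM1, PES1, POLR1A, UTP15 and UTP20 had probes that passed on at most 1 array. L-540 cells in flasks were given 10 µM perifosine, an alkylphospholipid that interferes with AKT signalling, 5 µM sorafenib, an inhibitor of several kinases including RAF, or both together, each for 24 h. The fourth group, labelled control, received neither drug, and whether it received vehicle is not given in the labels. Each of the 4 groups has 3 arrays lettered A, B and C. The labels do not say that letters are separate cultures, so p-values measure only how far these arrays differ among themselves, which may be technical, and all values come from 1 cell line.

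MYC is a transcription factor that binds DNA as a dimer with MAX, preferentially at the E-box, and growing cells use it to raise the output of genes for ribosome production. Ribosomes begin in the nucleolus: RNA polymerase I transcribes the precursor rRNA, small nucleolar ribonucleoproteins (snoRNPs) methylate and pseudouridylate it, and assembly factors fold and cut it into the small and the large subunit. Lymphoid tumour cells commonly keep this programme high, and nucleolar stress is a known route to p53.

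With sorafenib, most of the assembly genes had lower values, while the main MYC probe showed no detectable difference. The averaged comparison sets the 6 arrays with sorafenib (alone or in the combination) against the 6 without it (perifosine alone or control). In it, 33 of 38 genes were below 0, with a median log2 change of -0.24, against 49.7% of all 8092 genes below 0 and a median of 0.00. FBL, GAR1, NOLC1, NOP14 and NOP16 passed the test and fell (limma, adjusted p under 0.05), and none rose. Of all genes, 5.5% were lower and 7.85% higher at that threshold. At an unadjusted p under 0.05, limma counted 14 of the 38 genes lower and 0 higher, against 12.7% of all genes lower. The number called moved with single arrays: leaving out control B, control C, perifosine B or perifosine C left 0 of the 38 genes called. Leaving out sorafenib A, sorafenib B, sorafenib C or combination A left 1, leaving out control A or combination C left 3, leaving out combination B left 4, and leaving out perifosine A gave 7. All 5 genes stayed below 0 in each of these 12 fits and in the other 10 alternatives tried.

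**Figure D1:**
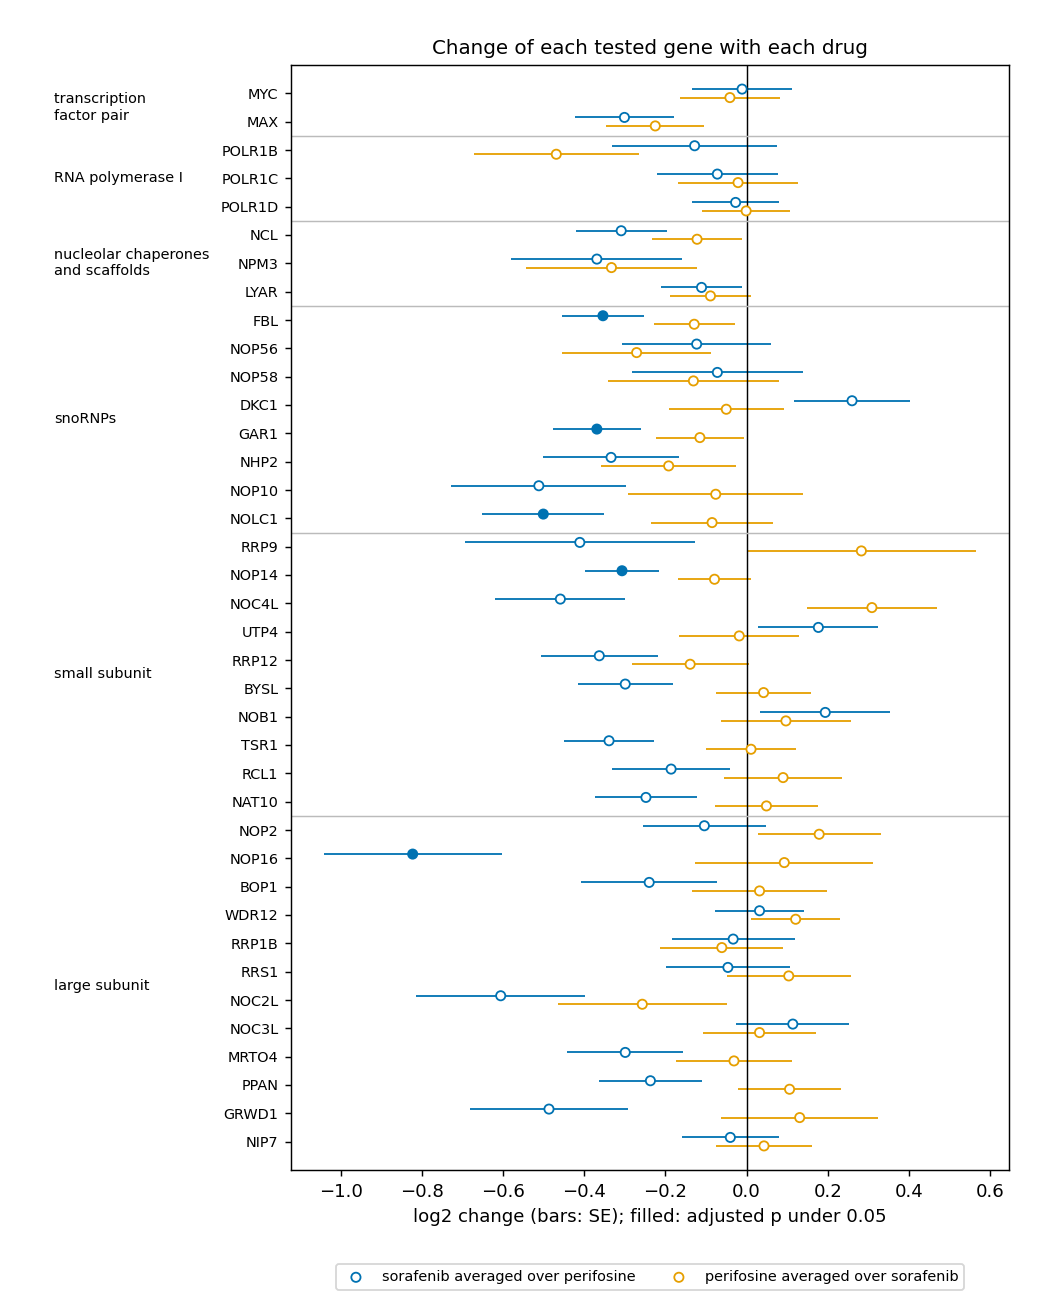
Log2 change of each of the 38 genes (points, with SE bars) for sorafenib averaged over perifosine in blue and for perifosine averaged over sorafenib in orange, grouped by role, with a filled point where the adjusted p was under 0.05. The blue points of 33 genes lie left of 0 and 5 of them are filled; no orange point is filled.

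The arrays detected 9291 to 11657 probes, and the lowest number belonged to combination array B. That array also had the highest median intensity before normalization (648.7, against 404.3 to 579.3 on the others) and the lowest array weight in limma (0.291, against 0.664 to 1.69). Correlations between arrays of a group ran from 0.956 to 0.984. TNFRSF8, which encodes CD30, the defining surface marker of Hodgkin cells, was detected on all 12 arrays, and 7 of 9 listed Hodgkin markers were measured, without CCL17 and IRF4. Their summed linear intensity ran from 20264 to 41080 with sorafenib and from 24662 to 42103 without it. Single markers moved with sorafenib in both directions: TNFRSF8 fell by 0.78 and IL2RA by 0.51, and TRAF1 rose by 0.87 and the macrophage marker CSF1R by 0.58 (averaged comparison; limma, adjusted p = 0.00468, 0.0282, 0.011 and 0.0158). The probes listed for B cell, epithelial and endothelial markers did not pass the filter. Of the T and NK markers 3 of 6 did (CD2, CD4 and NKG7, summing to 31775 to 48206 with sorafenib and 37086 to 47020 without), of the macrophage markers CD68 and CSF1R (2875 to 3941 with and 1949 to 3089 without) and of the fibroblast markers COL3A1 (52 to 254 with and 56 to 213 without). All 12 arrays are labelled as L-540 and no other cell type is named. The part of these markers in the results below was not tested. Arrays were brought to 1 distribution, so total RNA per cell was not measured, and fewer cells of a kind and less RNA per cell cannot be told apart.

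The tested probe of MYC read 13.60, 13.46 and 13.41 log2 units with perifosine (arrays A, B and C), 13.35, 13.68 and 13.53 with sorafenib and 13.44, 13.87 and 13.31 with the combination, against 13.69, 13.37 and 13.72 in control cells. No group stood apart and all 4 overlapped. The averaged sorafenib change was -0.01 ± 0.124 (SE; limma, adjusted p = 0.968), with a 95% interval of -0.28 to 0.26. A second MYC probe, detected on 10 of 12 arrays, gave another picture. It read 8.85, 8.46 and 7.95 with perifosine, 7.16, 8.20 and 8.03 with sorafenib and 8.43, 8.15 and 6.69 with the combination, against 8.75, 8.53 and 8.27 in control cells. All 3 sorafenib arrays were below all 3 control arrays on that probe, while the combination arrays overlapped them. Its averaged sorafenib change was -0.69 ± 0.301 (SE), which did not pass (limma over all kept probes, adjusted p = 0.168). Both probes carry the same transcript accession in the annotation, and which of them follows MYC mRNA more closely was not tested.

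MAX, the obligate dimer partner, had a tested probe at 8.98, 9.59 and 9.16 with perifosine, 9.28, 9.15 and 9.06 with sorafenib and 8.80, 8.68 and 9.02 with the combination, against 9.42, 9.26 and 9.40 in control cells. Each combination array was below each control array. The change of the combination against control was -0.53 ± 0.172 (SE; limma, adjusted p = 0.115), and the averaged sorafenib change was -0.30 ± 0.121 (adjusted p = 0.127). The other 2 MAX probes, assigned to other transcripts of the gene, read higher with sorafenib, at 0.11 ± 0.183 and 0.76 ± 0.385, and no MAX probe passed.

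**Figure D2:**
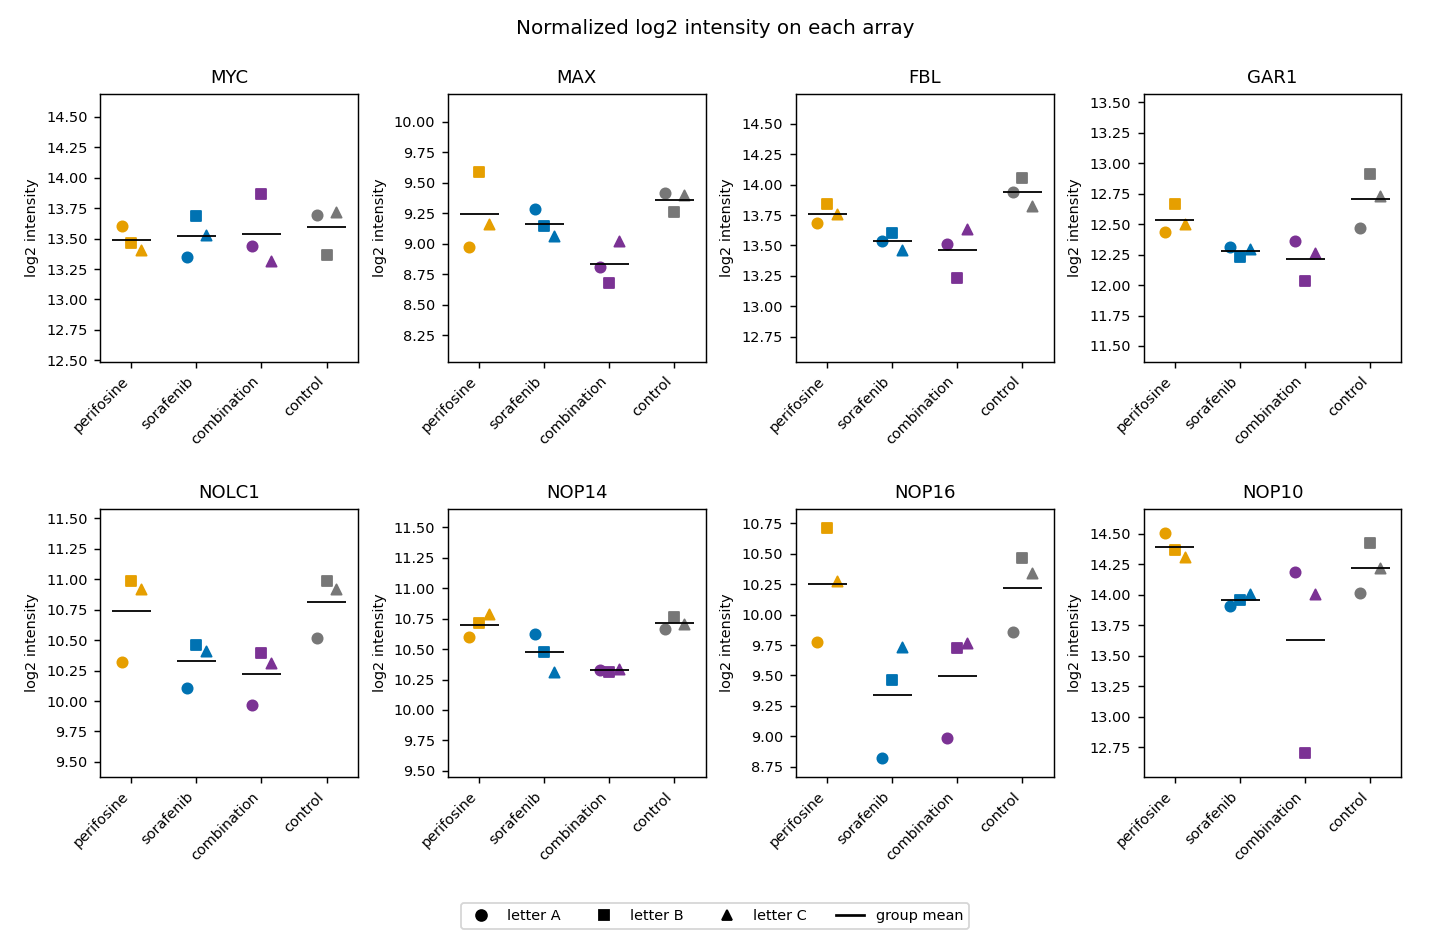
Normalized log2 intensity (vertical axis, the same span in each panel) of 8 genes on each array, by group, with the letter as the marker and the group mean as a line. MYC overlaps in all 4 groups; for FBL, GAR1 and NOP16 the 6 arrays with sorafenib lie below the 6 without it, and NOP10 on combination array B lies far below the other arrays.

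Of the RNA polymerase I subunits, POLR1B, POLR1C and POLR1D were measured. POLR1C and POLR1D are shared with RNA polymerase III, and POLR1B is the second largest subunit of the enzyme. Their averaged sorafenib changes were -0.13, -0.07 and -0.03, none past the threshold. The POLR1B probe was detected on 9 arrays and on only 1 of the 3 combination arrays. A second POLR1D probe for another transcript read 0.36 ± 0.128 higher with sorafenib (limma over all kept probes, adjusted p = 0.095), against -0.03 ± 0.110 on the tested probe.

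The nucleolar chaperones and scaffolds NCL (nucleolin, an abundant rRNA-binding protein), NPM3 (a histone chaperone of the nucleoplasmin family) and LYAR (a nucleolar zinc-finger protein) were lower by -0.31, -0.37 and -0.11 on the averaged scale, and none passed. NPM3 read 12.19, 12.08 and 11.82 with sorafenib and 12.08, 10.78 and 12.19 with the combination, against 12.31, 12.43 and 12.41 in control cells. Perifosine arrays read 11.95, 12.17 and 12.08, so the arrays of every treatment were below every control array for this gene. A second NCL probe read -0.72 ± 0.252 (limma over all kept probes, adjusted p = 0.092).

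The snoRNP proteins held 3 of the 5 genes that fell. All 8 were measured, 7 of them below 0 and 3 past the threshold, with a median of -0.34 for the averaged sorafenib change. FBL, the fibrillarin methyltransferase of box C/D snoRNPs, read 13.54, 13.61 and 13.46 with sorafenib and 13.51, 13.24 and 13.63 with the combination, against 13.68, 13.84 and 13.76 with perifosine and 13.94, 14.06 and 13.83 in control cells. The highest array with sorafenib was below the lowest without it. FBL fell by 0.35 ± 0.10 log2 units (SE; limma, adjusted p = 0.039), to 0.783 of its level without sorafenib.

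GAR1, a core protein of the box H/ACA snoRNPs that guide pseudouridylation, read 12.31, 12.23 and 12.30 with sorafenib and 12.36, 12.03 and 12.26 with the combination, against 12.44, 12.66 and 12.50 with perifosine and 12.47, 12.91 and 12.73 in control cells. These ranges did not overlap either. GAR1 fell by 0.37 ± 0.108 (SE; limma, adjusted p = 0.0438). Its other 2 probes fell further, by 0.60 ± 0.114 and 0.81 ± 0.160 (limma over all kept probes, adjusted p = 0.00946 and 0.0108), whereas the tested probe had an adjusted p of 0.0539 in that fit. All 3 GAR1 probes therefore had the same direction, with 2 of 3 past the threshold among probes. In that fit 5 of the 52 kept probes of the 38 genes passed, against 1288 of all 11904 kept probes, in either direction.

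NOLC1, a chaperone that escorts snoRNPs to the nucleolus, read 10.11, 10.46 and 10.41 with sorafenib and 9.97, 10.39 and 10.31 with the combination, against 10.32, 10.98 and 10.92 with perifosine and 10.52, 10.99 and 10.92 in control cells. Array A was the lowest of its group in all 4 groups, and perifosine A overlapped the arrays with sorafenib. NOLC1 fell by 0.50 ± 0.15 (SE, limma, adjusted p = 0.048), and within the letters A, B and C the averaged change was -0.38, -0.56 and -0.56. Such values by letter partly set combination arrays beside perifosine arrays, and those groups did not pair by letter. The NOLC1 probe did not pass in the fit over all kept probes (limma, adjusted p = 0.0575).

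The other H/ACA proteins did not pass. NOP10, a small protein of the same particle, read 13.91, 13.96 and 14.01 with sorafenib and 14.18, 12.70 and 14.01 with the combination, against 14.51, 14.37 and 14.31 with perifosine and 14.02, 14.42 and 14.22 in control cells. Combination B was more than 1 log2 unit below every other array. The averaged change was -0.51 ± 0.216 (SE; limma, adjusted p = 0.144), made up of -0.21, -1.06 and -0.26 within the letters A, B and C. Combination and perifosine arrays did not pair by letter. NHP2, which binds the same guide RNAs, was lower by -0.33 and was lowest on the same array (10.48).

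DKC1, the dyskerin pseudouridine synthase that GAR1, NHP2 and NOP10 accompany, had the highest averaged change of the 38 genes. It read 12.69, 13.06 and 12.88 with sorafenib and 12.48, 13.13 and 12.91 with the combination, against 12.43, 12.65 and 12.62 with perifosine and 12.34, 12.92 and 12.63 in control cells. The groups overlapped, and its change of 0.26 ± 0.142 (SE) did not pass (limma, adjusted p = 0.259). NOP56 and NOP58, the scaffold pair of the box C/D particle, had averaged changes of -0.12 and -0.07. The 3 NOP56 probes disagreed: the tested one read -0.12 ± 0.186, another 0.13 ± 0.231, and the third -0.48 ± 0.135, which passed among probes (limma, adjusted p = 0.0438).

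**Figure D3:**
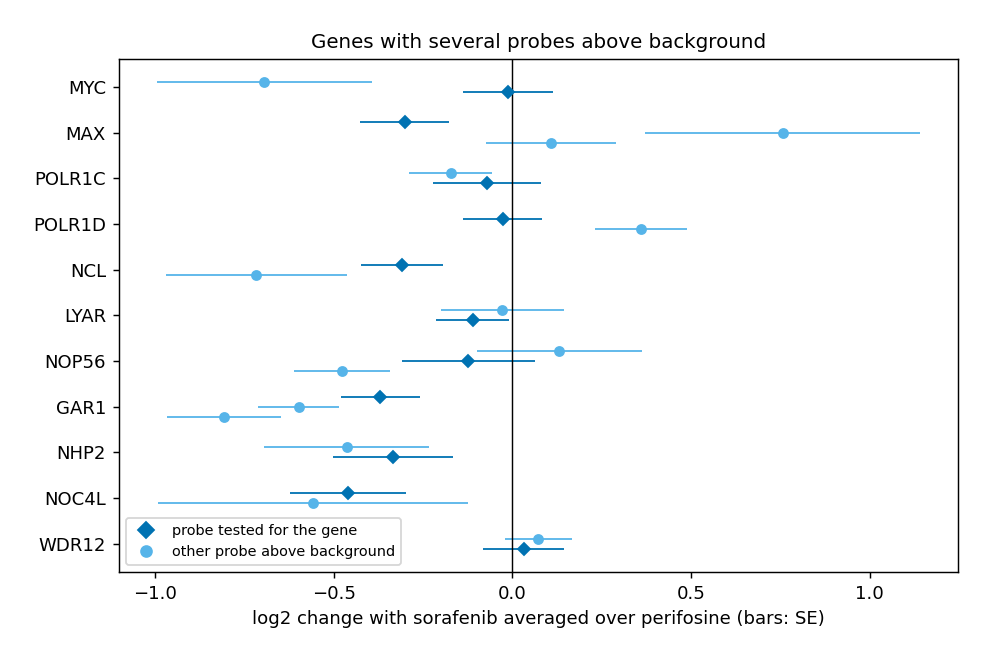
Log2 change with sorafenib averaged over perifosine (points, with SE bars) for every kept probe of the 11 genes that had more than 1, with diamonds for the probe tested for the gene and circles for the other 14 probes. Of the other probes 10 share the sign of the tested probe and 4 have the opposite sign; GAR1's 3 probes all lie left of 0, and those of MYC, MAX, POLR1D and NOP56 lie apart.

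Among the small-subunit factors 1 of 10 genes passed, with 8 of 10 below 0 and a median of -0.30. NOP14, a component of the small-subunit processome, read 10.62, 10.48 and 10.32 with sorafenib and 10.33, 10.31 and 10.34 with the combination, against 10.60, 10.72 and 10.79 with perifosine and 10.67, 10.76 and 10.71 in control cells. Sorafenib A overlapped perifosine A, and the combination arrays had an SD of 0.0125. NOP14 fell by 0.31 ± 0.091 (SE, limma, adjusted p = 0.0459). Its probe did not pass in the fit over all kept probes (limma, adjusted p = 0.0575).

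NOC4L, the partner of NOP14 known from yeast, was lower by -0.46 ± 0.160 (SE; limma, adjusted p = 0.0801). It read 8.36, 8.23 and 8.69 with sorafenib and 8.36, 9.10 and 8.47 with the combination, against 8.80, 9.37 and 9.41 with perifosine and 8.85, 8.83 and 8.70 in control cells. Each sorafenib array was below each control array, while perifosine B and C were the highest. RRP9, which binds the U3 snoRNA, was lower by -0.41, but its arrays spread widely: 7.08 to 8.13 with sorafenib (median 7.68) and 7.30 to 8.93 without it (median 8.02). The export and maturation factors RRP12, BYSL and TSR1 were lower by -0.36, -0.30 and -0.34, and NAT10, an rRNA acetyltransferase, and RCL1, a processing factor, by -0.25 and -0.19, without passing.

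UTP4 (also named cirhin) and NOB1, the endonuclease that makes the final cut of 18S rRNA, read higher, at 0.18 ± 0.148 and 0.19 ± 0.160 (SE), and did not pass. UTP4 ran from 11.89 to 12.41 with sorafenib (median 12.25) and from 11.64 to 12.30 without it (median 12.08). NOB1 ran from 8.96 to 9.62 with sorafenib (median 9.27) and from 8.68 to 9.31 without it (median 9.16). Both genes overlapped between the arms.

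In the large-subunit group 1 of 12 genes passed, with 10 of 12 below 0 and a median of -0.17. NOP16, a nucleolar factor of 60S assembly, had the largest decrease of the 38. It read 8.82, 9.46 and 9.73 with sorafenib and 8.99, 9.72 and 9.76 with the combination, against 9.78, 10.71 and 10.28 with perifosine and 9.86, 10.46 and 10.34 in control cells. Letter A was lowest in every group, and the highest array with sorafenib (9.76) was just below the lowest without it (9.78). NOP16 fell by 0.82 ± 0.219 (SE; limma, adjusted p = 0.0308), to 0.565 of its level without sorafenib. Within the letters A, B and C the change was -0.91, -0.99 and -0.56, though combination and perifosine arrays did not pair by letter.

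NOC2L, which works with NOC3L in early 60S particles, read 8.64, 8.40 and 8.94 with sorafenib and 7.99, 8.51 and 8.05 with the combination, against 8.24, 9.44 and 9.34 with perifosine and 8.83, 9.23 and 9.08 in control cells. Each combination array was below each control array, and perifosine A lay among the arrays with sorafenib. The averaged change of -0.61 ± 0.208 (SE) did not pass (limma, adjusted p = 0.0757). GRWD1, a chaperone of a ribosomal protein, was lower by -0.49 ± 0.194 (adjusted p = 0.122), ranging from 10.06 to 10.76 with sorafenib (median 10.50) and from 10.44 to 11.36 without it (median 11.11).

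BOP1, of the PeBoW complex (with PES1 and WDR12), was lower by -0.24, MRTO4 by -0.30 and PPAN by -0.24. NOP2, an rRNA methyltransferase, NIP7, RRS1 and RRP1B had averaged changes between -0.10 and -0.03. WDR12 and NOC3L had 0.03 and 0.11. WDR12 ran from 12.38 to 12.88 with sorafenib (median 12.50) and from 12.26 to 12.65 without it (median 12.54), and NOC3L from 8.74 to 9.29 with it (median 8.97) and from 8.52 to 9.20 without it (median 8.93). Neither gene separated the arms.

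FBL, GAR1 and NOP16 were the 3 genes whose 6 arrays with sorafenib all lay below the 6 without it, and none of the 38 lay wholly above. The same held for 3.53% of all genes below and 5.03% above. The list was built around MYC, so the promoters of its genes were searched for the canonical E-box CACGTG. The motif reads the same on both strands, and the search covered the 250 bases before each RefSeq start (GRCh38.p14). Whether MYC acts on these genes was not tested. The promoters of FBL, GAR1 and NOP16 are shown with that of NOP10, which carries the motif more than once. Capitals mark the E-box, each sequence ends at the base before the start, and for GAR1 the first of its listed starts is shown.
FBL promoter (chr19:39846380-39846629, minus strand): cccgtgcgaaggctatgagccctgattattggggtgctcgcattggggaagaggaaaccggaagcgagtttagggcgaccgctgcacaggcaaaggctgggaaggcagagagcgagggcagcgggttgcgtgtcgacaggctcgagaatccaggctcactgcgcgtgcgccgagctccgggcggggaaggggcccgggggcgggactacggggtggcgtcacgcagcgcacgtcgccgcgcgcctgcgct
GAR1 promoter (chr4:109815260-109815509, plus strand): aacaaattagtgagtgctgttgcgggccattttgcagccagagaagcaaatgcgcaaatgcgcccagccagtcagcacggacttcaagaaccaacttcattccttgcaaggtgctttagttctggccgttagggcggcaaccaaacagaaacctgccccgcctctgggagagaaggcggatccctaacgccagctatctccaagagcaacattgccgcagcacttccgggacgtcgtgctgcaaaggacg
NOP16 promoter (chr5:176388599-176388848, minus strand): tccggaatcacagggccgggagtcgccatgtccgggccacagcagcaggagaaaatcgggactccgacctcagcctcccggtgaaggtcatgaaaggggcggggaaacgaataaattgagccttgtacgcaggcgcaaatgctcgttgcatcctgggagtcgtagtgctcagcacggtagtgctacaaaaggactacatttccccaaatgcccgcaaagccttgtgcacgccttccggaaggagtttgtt
NOP10 promoter (chr15:34343137-34343386, minus strand): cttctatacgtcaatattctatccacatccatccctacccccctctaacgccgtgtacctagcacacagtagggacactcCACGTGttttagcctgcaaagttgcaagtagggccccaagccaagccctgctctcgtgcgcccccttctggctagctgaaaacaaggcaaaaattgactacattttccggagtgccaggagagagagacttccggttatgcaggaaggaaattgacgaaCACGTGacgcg
The letters CACGTG occur in none of the first 3 and in 2 places in NOP10, 170 and 11 bases before the start. Of the 38 tested genes 31 had an entry, with 37 promoters, and 4 of the 37 (10.8%) held the motif, against 6.34% of 35116 promoters in the RefSeq table. The others with it were LYAR, UTP4 and NAT10. The median GC content was 66% in the 37 promoters and 58% in all promoters, and its part in the difference was not tested. None of the 5 promoters of FBL, GAR1, NOP14 and NOP16 held the motif, which is too few to set against 6.34%. NOLC1 had no entry. A match or its lack describes only these letters in this window.

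Sorafenib alone against control answered the single-drug question with 3 arrays on each side. In this comparison 30 of 38 genes were below 0, with a median of -0.24. Without sorafenib A, 24 of 38 were below 0, with a median of -0.16. By limma, 0 of the 38 passed, against 0.519% of all genes lower, and 6 were lower at an unadjusted p under 0.05 (FBL, GAR1, NOLC1, RRP12, TSR1 and NOP16), as were 7.37% of all genes. With the letter as a block, NOP16 at -0.88 ± 0.146 and NOLC1 at -0.48 ± 0.113 passed (limma, adjusted p = 0.0174 and 0.0457). Sorafenib and control arrays paired by letter. The block was fitted over all 12 arrays, however, including the combination arrays, which did not pair. In 13 of the 38 genes every sorafenib array was below every control array, and in none above. Of all genes 11.8% lay wholly below and 13.1% wholly above.

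The combination against control gave much the same picture. It shares the control arrays with the comparison above, so the sets of values are not independent. By limma, 0 of 38 genes passed, against 1.1% of all genes lower, and 11 were lower at an unadjusted p under 0.05, as were 9.06% of all genes. Below 0 were 30 of 38, with a median of -0.20, which became -0.08 without combination A and -0.30 without combination B. The lowest adjusted p was that of FBL, at 0.0844 for a change of -0.48 ± 0.142 (SE). In 12 genes every combination array was below every control array, against 10.5% of all genes. The snoRNP group had the lowest median of the 6 roles (-0.48), with 7 of 8 genes below 0.

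Adding sorafenib to perifosine, the combination against perifosine alone, had 32 of 38 genes below 0 and a median of -0.24. By limma, 0 of 38 passed, against 0.803% of all genes lower, and 7 were lower at an unadjusted p under 0.05 (MAX, NOP10, NOLC1, NOP14, NOC4L, NOP16 and NOC2L), as were 8.32% of all genes.

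No effect of perifosine on these genes was detectable. Against control, 20 of 38 genes were below 0, with a median of -0.02. By limma, 0 passed in the list and 0% of all genes passed lower, and at an unadjusted p under 0.05 there were 0 of the 38 and 198 of all genes. NPM3 was the 1 gene with every perifosine array below every control array, against 3.29% of all genes. WDR12 was the 1 gene wholly above, against 4.18% of all genes. Averaged over sorafenib, 0 genes passed (0% of all genes lower; limma) and 1 of the 38, POLR1B, was lower at an unadjusted p under 0.05, as were 1.22% of all genes.

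The extremes of the averaged perifosine comparison were POLR1B at -0.47 ± 0.203, NPM3 at -0.33 ± 0.211 and NOP56 at -0.27 ± 0.184 on the low side, and NOC4L at 0.31 ± 0.160, RRP9 at 0.28 ± 0.283 and NOP2 at 0.18 ± 0.152 on the high side (SE; limma, each adjusted p = 0.999). POLR1B read 7.84, 8.04 and 7.05 with perifosine and 7.76, 7.49 and 6.96 with the combination, against 8.33, 7.77 and 7.85 with sorafenib and 8.12, 7.67 and 8.21 in control cells. Letter C of the groups with perifosine gave its lowest values, and the other arrays overlapped. RRP9 read 7.50, 8.29 and 8.93 with perifosine, against 7.30, 7.75 and 8.70 in control cells, with overlapping groups. NOP56 read 11.92, 12.90 and 12.54 with perifosine, against 12.45, 12.83 and 12.77 in control cells. NOP2 read 12.91, 13.26 and 13.20 with perifosine, against 12.83, 13.09 and 13.15 in control cells. Both genes overlapped between these groups.

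The combination against sorafenib had 0 of 38 genes past the threshold (0% of all genes lower; limma) and 0 at an unadjusted p under 0.05. The interaction term, which sets the combination's change beside the sum of the single-drug changes, likewise had 0 past the threshold (0% of all genes lower) and 0 at an unadjusted p under 0.05 (limma). For NOP16 the interaction was 0.12 ± 0.438 and for FBL 0.10 ± 0.200 (SE), and for NOP16 its 95% interval ran from -0.84 to 1.08.

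Per array, the median of the 38 genes relative to the control mean was -0.24, 0.11 and 0.07 with perifosine, -0.30, -0.20 and -0.11 with sorafenib and -0.36, -0.05 and -0.17 with the combination, against -0.17, 0.11 and 0.08 in control cells, for the letters A, B and C. Letter A was lowest in every group, so the arms with and without sorafenib overlap when letters are mixed. Within the letters A, B and C, 30, 26 and 33 of the 38 genes were below 0 for sorafenib averaged over perifosine, with medians of -0.16, -0.21 and -0.23. These values set combination arrays beside perifosine arrays of the same letter, and the deviations of those groups did not pair by letter.

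**Figure D4:**
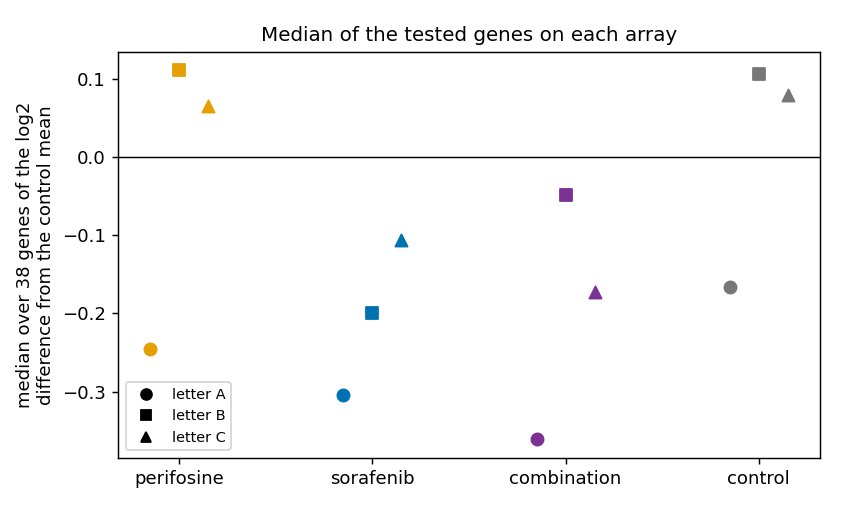
Median over the 38 genes of the log2 difference from the control mean (vertical axis) for each array, by group, with the letter as the marker. Letter A lies lowest in each group (-0.24 with perifosine, -0.30 with sorafenib, -0.36 with the combination, -0.17 in control cells), and within each letter the groups with sorafenib lie below those without it.

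Related gene lists were read on the same averaged sorafenib comparison, as counts and medians. In it 5.5% of all genes were lower and 7.85% higher at the threshold. None of the 14 measured MYC network partners (dimer partners, antagonists and cofactors) passed, with a median of -0.04 and 8 of 14 below 0 (limma). Of 35 measured MYC target genes outside ribosome assembly, 4 fell and 1 rose, with a median of -0.21. The 1 that rose was SHMT2, by 0.56 ± 0.127 (SE; limma, adjusted p = 0.0158). The 3 with the largest changes among those that passed were TFRC, the transferrin receptor, which fell by 0.92 ± 0.206, CDC25A, a cell cycle phosphatase, which fell by 0.77 ± 0.105, and EIF4G1, a translation initiation scaffold, which fell by 0.70 ± 0.180 (SE; limma, adjusted p = 0.0147, 0.00136 and 0.0272). CDC25A ran from 9.97 to 10.18 with sorafenib and from 10.48 to 10.98 without it, with no overlap. Of all genes 3.53% lay wholly below in this way.

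Beside the 3 measured subunits, a list drawn up for RNA polymerase I transcription had 17 other measured genes. Whether each acts in that transcription was not checked. The median was -0.30, with 12 of 17 below 0. Several of the lower genes were near background. POLR2K was detected on 0 of 3 sorafenib arrays, and POLR2L, MYBBP1A, TCOF1, POLR1F and POLR1G were also missed on some arrays. In this list POLR2H, a subunit shared by the nuclear RNA polymerases, fell by 0.65 ± 0.162 (SE; limma, adjusted p = 0.0236). Of 34 further small-subunit factors, UTP11 fell by 0.32 ± 0.0965 and NOL7 rose by 0.36 ± 0.106 (limma, adjusted p = 0.0481 and 0.0465), and the median was -0.05. A further list drawn up for large-subunit assembly had 46 measured genes, and whether each acts on that subunit was not checked. In it TEX10 fell by 0.39 ± 0.105 and MDN1 by 0.62 ± 0.134 (limma, adjusted p = 0.031 and 0.0122), and the median was -0.07. MDN1 was detected on 0 of 3 combination arrays, so its level there is only a bound. Both wider assembly lists thus had medians nearer 0 than the 38 genes.

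Of 12 measured genes for rRNA trimming, 3 fell: the exosome subunits EXOSC4 by 0.57 ± 0.169 and EXOSC3 by 0.47 ± 0.102, and the exonuclease XRN2 by 0.44 ± 0.108 (SE; limma, adjusted p = 0.0468, 0.0134 and 0.0238). The median of that list was -0.27. The list of p53, its regulators and targets and the MDM2-binding ribosomal proteins went the other way. Of its 28 genes 18 were measured and all were above 0, with a median of 0.50. Of these 6 rose while 0 fell (7.85% and 5.5% of all genes). PMAIP1 was detected on 0 perifosine and 0 control arrays, and on 2 sorafenib and 2 combination arrays. FAS, among the 6, was detected on 0 perifosine and 1 control array, and on 3 sorafenib and 2 combination arrays. The filter can thus keep a gene through the arrays where it is high, which favours changes above 0. GADD45A, a growth arrest gene, rose by 1.11 ± 0.264, RRM2B, a ribonucleotide reductase subunit, by 0.86 ± 0.165, and TNFRSF10B, a death receptor, by 0.81 ± 0.183 (SE; limma, adjusted p = 0.0193, 0.0078 and 0.016). RRM2B ran from 9.24 to 9.87 with sorafenib and from 8.31 to 9.11 without it, with no overlap. Of all genes 5.03% lay wholly above in this way. GADD45A ran from 11.55 to 12.09 with sorafenib and from 10.05 to 11.57 without it and overlapped. With perifosine against control the median of that list was 0.04 and 0 of 18 passed. In the comparisons of that same size, sorafenib and the combination against control, 0 of 18 passed as well. Their medians were 0.45 and 0.58. For perifosine averaged over sorafenib the median was -0.02 and 0 of 18 passed.

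**Figure D5:**
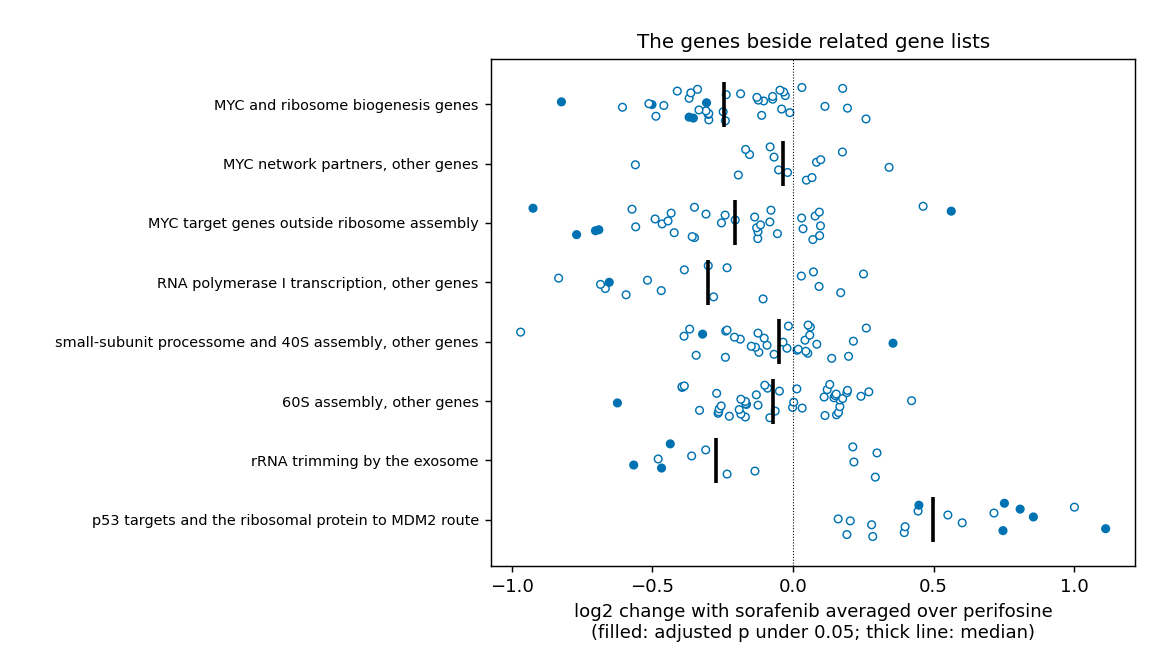
Log2 change with sorafenib averaged over perifosine for each measured gene (points, filled where the adjusted p was under 0.05) of the 38 genes and of 7 related lists, with a thick line at each median. The 18 p53 list genes all lie right of 0, with a median of 0.50, and the 38 MYC and ribosome biogenesis genes have a median of -0.24.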

How the data were processed

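The deposited table of unnormalized values holds, per the file headers, the authors' linear bead intensity for each probe and array, beside a detection p-value from the negative-control beads. A second deposited table holds the authors' normalized intensity values, whose method is not given in the labels or headers. The submitters' processing notes name BeadStudio.

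From the unnormalized table, neqc of limma 3.58.1 in R 4.3.3 corrected background (offset 16, using the detection p-values), normalized by quantiles and took log2 of the authors' intensities. Probes with detection p under 0.01 on at least 3 of 12 arrays were kept (11904 of 48803), of which 10117 had 1 gene symbol. Each gene took its probe with the highest mean, which gave 8092 genes. All 12 arrays entered 1 limma fit (lmFit, eBayes) with a mean per group, 8 comparisons and Benjamini-Hochberg adjustment over 8092 genes at 0.05. The number of arrays, 3 per group, limits precision. The fit was tested on simulated data.

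The genes, the related lists and the tests were chosen with earlier results of these data known. Genes chosen for their array values are MYC, MAX, those past the threshold and the 5 lowest and 5 highest by averaged sorafenib change. The 3 lowest and 3 highest by averaged perifosine change were added. Of these, GRWD1, UTP4, NOB1, WDR12 and NOC3L are given as ranges and medians. RRP9, NOP56 and NOP2 are given per array for perifosine and control only. From each related list at most 3 genes past the threshold are named. SHMT2 was added as the MYC target gene that rose, and PMAIP1, FAS and several RNA polymerase I list genes for their detection only.

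Letters are shared between groups in the labels. Deviations from the group means of same-lettered arrays correlated above 0.1 between sorafenib and control (0.28, 0.334 and 0.186, in letter order), perifosine and control (0.355, 0.317 and 0.265) and perifosine and sorafenib (0.385, 0.293 and 0.234). Pairs with the combination did not meet this (B from -0.161 to -0.0985), so its letters were taken as numbers only. Promoters are from RefSeq, GRCh38.p14.

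Alternatives were the letter as a block, median scaling, no background correction, the authors' normalized table, other filters and probe rules, array weights, a trended prior variance and leaving out each array.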

Additional observations from a re-analysis of the deposited data

Results flagged for a closer look

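In an arm of 6 arrays (with or without sorafenib), 5 genes had an array whose gap to its nearest neighbour took an unusually large share of the arm's range by Dixon's criterion. On combination array B, NPM3 read 10.78 (nearest array 11.82) and NOP10 read 12.70 (nearest 13.91). That array also had the fewest detected probes. RCL1 read 9.15 on sorafenib A (nearest 9.74). In the arm without sorafenib, NHP2 read 11.12 on perifosine A (nearest 11.51) and RRP1B read 10.20 on control B (nearest 9.68). Chance flags about 1 in 20 groups. The criterion was met by 3 of the 38 genes in the arm with sorafenib and 2 of 38 in the arm without it, against 10.2% and 5.34% of all genes. The causes were not tested.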

How the results depend on the processing

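The count of 5 genes that fell with sorafenib averaged over perifosine became 0 with median scaling (154 genes called in all), 0 with no filter on detection and 10 with array weights. With 1 array left out it ranged from 0 to 7. With the letter as a replicate block it was 7, as it was with no background correction, with the authors' normalized table and with detection required on all 12 arrays. The block also raised the calls over all 8092 genes, from 445 to 632 lower and from 635 to 874 higher. For sorafenib against control the count of 0 became 2 with the replicate block and 1 with the mean of a gene's kept probes. Over all genes 119 were called in the main fit, 404 with the block and 133 with the mean of the probes. For the combination against control the count of 0 became 2 with the replicate block, no background correction or the authors' normalized table. It became 1 with every kept probe by itself, with the mean of the probes or with a trended prior variance. With 1 array left out it was 0 to 1. Calls over all genes rose from 276 to 650 with the block, 547 with no background correction and 544 with the authors' table. For the combination against perifosine the count of 0 became 2 with the replicate block and 2 with array weights, and 0 to 1 with 1 array left out. There the block took the calls over all genes from 193 to 501. The block changed no other count of members by more than 1.5 times, and the causes of these shifts were not tested. In the related lists of the averaged comparison, the block gave 12 lower and 2 higher MYC target genes (4 and 1 without it). It gave 8 higher p53 list genes (6). Lower genes numbered 3 in the RNA polymerase I list (1), 3 in the small-subunit list (1), 3 in the large-subunit list (2) and 4 in the trimming list (3). The rise with the block over all genes, given above, stands beside these counts.

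The median of the 38 genes for sorafenib averaged over perifosine was below 0 in all 22 alternatives (-0.30 to -0.18). That of the combination against control was -0.34 with median scaling and -0.31 with array weights, and that of the combination against perifosine -0.16 with no background correction or the authors' table. MYC passed in none of them (limma, adjusted p from 0.257 to 0.988). FBL, GAR1, NOLC1, NOP14 and NOP16 passed in 11, 9, 10, 9 and 14 of the 22. Over all genes, higher ones made up 58.8% of the calls, and 69.5% with median scaling. For sorafenib against control that share was 64.7%, and 75% with median scaling and 77.1% with no filter. Precision is limited by 3 arrays a group, and POLR1B and NOP58 were not above background on every array.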
